A study of Mus musculus with 6 samples.

Results

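The genes followed here encode the contractile apparatus of smooth muscle, which in the testis is also the apparatus of peritubular myoid cells. They were taken as a named list of 10 genes: Acta2, Actg2, Tagln, Cnn1, Myh11, Des, Smtn, Cald1, Myl9 and Myocd. Of these, 9 had a probe with a gene symbol on the array, 10 probes in all among 26423, and Actg2, the smooth muscle gamma actin gene, was not analysed here. Of 15459 genes that passed the filter on dim signals, 8 were members. Cnn1, which encodes calponin, a thin-filament protein that slows the myosin motor, was the member with a probe that did not pass it.

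RNA from mouse gonadal cells of the ICR strain was hybridised to 6 single-colour (Cy5) arrays, 2 for each of 3 groups. GSC colonies, which the labels call glandular stem cells, grew for 7 days in 5% O2 from testicular cells of 80 mice aged 0 to 2 days. PGC colonies, named for primordial germ cells, grew in the same way from gonadal cells of 67 embryos at E11.5. CD49f+ sorted cells came from the testes of 100 newborn to P2 mice with magnetic beads against CD49f, which is the product of the integrin gene Itga6, and were not cultured. The sorted cells are labelled with physiological hypoxia and no oxygen value. Both colony groups were plated as total gonadal or testicular cells on laminin (200 ng/cm2) in a medium with EGF (10 ng/mL), and colonies were picked before RNA extraction. Each group pools many animals, and nothing in the labels says whether its 2 arrays came from separate preparations. The p-values therefore cover only the variation from array to array, possibly of technical origin, and precision is limited by having 2 arrays a group. Culture, picking and the lack of a sort separate both colony groups from the sorted cells at once, and cannot be told apart.

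Smooth muscle cells contract when myosin, built from the heavy chain encoded by Myh11 and regulatory light chains such as that of Myl9, pulls on filaments of alpha smooth muscle actin, encoded by Acta2. Caldesmon, calponin, transgelin and smoothelin bind those filaments, desmin forms intermediate filaments around them, and myocardin (Myocd) switches many of these genes on as a partner of serum response factor at DNA elements called CArG boxes. In the testis, peritubular myoid cells carry this machinery in a thin sheath around the seminiferous tubules, and vascular smooth muscle carries it in the vessel wall. Acta2 and Tagln are also raised in activated fibroblasts, whereas Myh11 is regarded as the most restricted to smooth muscle.

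The 250 bases before the start site of a RefSeq promoter entry were searched on both strands for the CArG box, because several members are textbook targets of serum response factor. For Acta2, Cnn1, Cald1 and Myl9 the window overlaps the gene's annotated span, so positions refer to the start site of the promoter entry. RefSeq promoter entries (GRCm38.p6) were matched for 6 of the 10 members, with 7 entries, since Cald1 had 2 start sites. Acta2, Myl9 and Des are shown, the first and second because they held matches and the third because it had the largest difference of all members without holding one. Capitals mark a CArG box or a CArG box with 1 core letter other than A or T.
Acta2, chr19:34255374-34255623, minus strand: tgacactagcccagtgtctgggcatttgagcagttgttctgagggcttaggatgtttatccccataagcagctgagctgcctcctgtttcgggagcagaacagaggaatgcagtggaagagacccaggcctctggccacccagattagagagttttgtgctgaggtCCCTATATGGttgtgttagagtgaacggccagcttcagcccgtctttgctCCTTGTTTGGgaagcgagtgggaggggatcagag
Myl9, chr2:156775214-156775463, plus strand: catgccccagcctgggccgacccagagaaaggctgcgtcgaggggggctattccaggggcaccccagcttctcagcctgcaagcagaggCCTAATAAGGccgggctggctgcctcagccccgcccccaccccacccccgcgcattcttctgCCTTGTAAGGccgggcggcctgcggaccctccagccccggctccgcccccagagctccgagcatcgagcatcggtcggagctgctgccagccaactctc
Des, chr1:75360042-75360291, plus strand: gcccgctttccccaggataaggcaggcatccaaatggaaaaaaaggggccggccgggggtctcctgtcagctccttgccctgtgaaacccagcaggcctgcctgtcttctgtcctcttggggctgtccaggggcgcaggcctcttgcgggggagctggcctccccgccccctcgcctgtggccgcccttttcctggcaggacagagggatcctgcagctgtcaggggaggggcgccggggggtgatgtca

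In the Acta2 window 2 CArG boxes with 1 changed core letter lay at -84 to -75 and at -34 to -25 from the start site. In the Myl9 window an exact CArG box lay at -161 to -152 and a box with 1 changed core letter at -99 to -90. The windows of Cnn1, Des, Smtn and Cald1 held neither form, which says only that these letters are not in these 250 bases. Of 32851 promoter entries of that length, 1.47% held an exact box and 7.24% one with 1 changed core letter. The element CATTCC, on either strand, was in the windows of Acta2, Smtn and 1 of the 2 Cald1 entries, and in 12.6% of all entries. No CATTCC match overlapped a CArG match.

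The values below are normalized log2 intensities, on which a step of 1 is a doubling of signal, unless a sentence says deposited intensity. A value under 7.82 lay below the 30th percentile of its array, the level used here in place of detection calls. A gene was called at a limma adjusted p under 0.05, and a probe's level is compared between groups and not with another probe's. In bulk RNA, more cells of a type and more RNA per cell cannot be told apart.

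**Figure D1:**
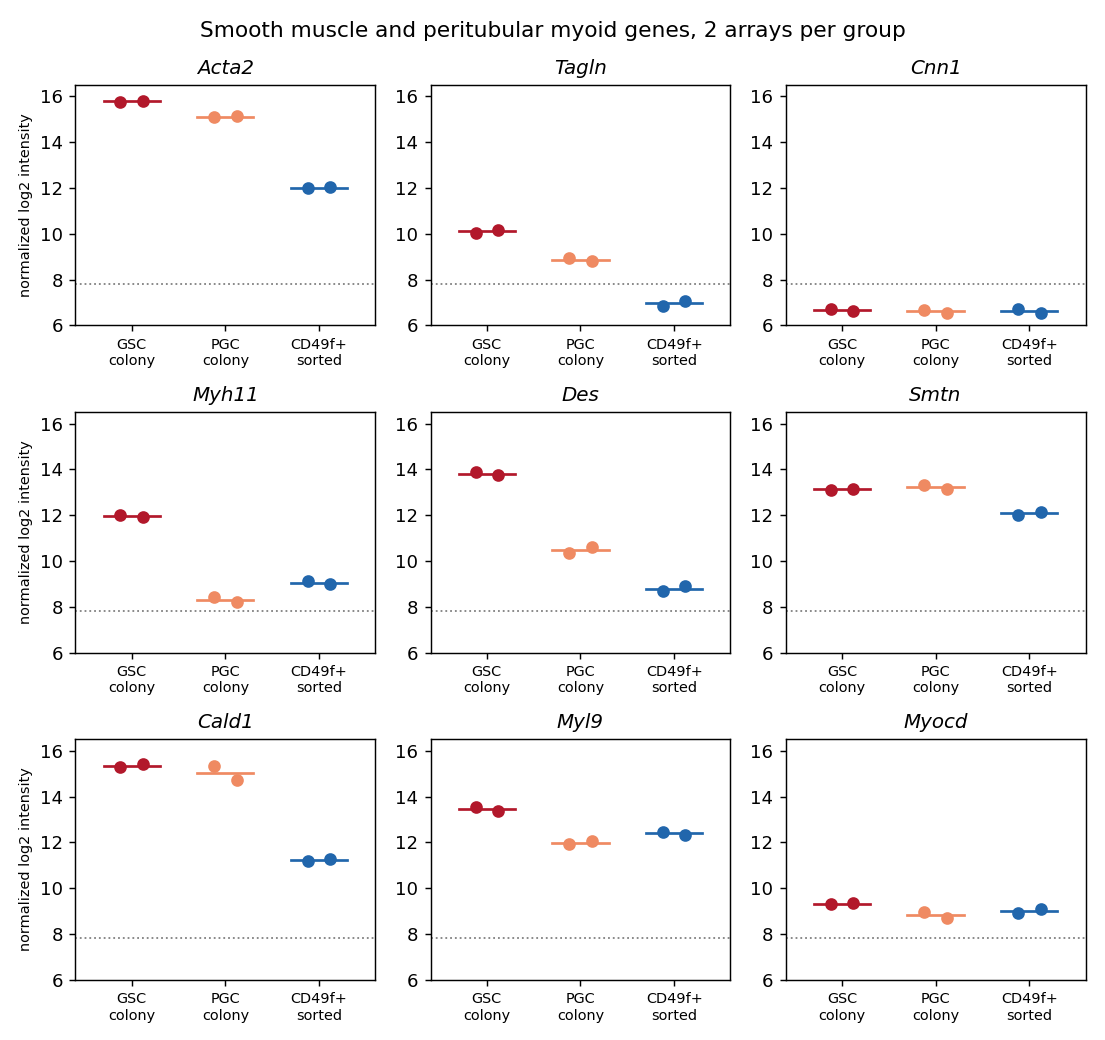
Normalized log2 intensity (vertical axis) of the 9 members with a probe in the GSC colony, PGC colony and CD49f+ sorted groups, a point per array and a line at the group mean of 2 arrays; the dotted line is the 30th percentile of the arrays at 7.82. Acta2 and Cald1 stand high in both colony groups, Des and Myh11 stand highest in GSC colonies, and Cnn1 lies under the dotted line on all 6 arrays.

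The opening comparison set GSC colonies against CD49f+ sorted cells, both from newborn testis. Of the 8 members tested, 7 rose in GSC colonies and 0 fell, while 22.5% of all genes tested rose, 24.5% fell and 47.1% changed in either direction. Tagln is among the 7, but it was under the 30th percentile on both sorted arrays and passed the filter only through colony arrays. It could therefore hardly have been counted as a fall. Cnn1, dim on every array, is not among the 8. The median difference of the 8 members was 3.02 on the log2 scale, beside -0.01 over all genes tested. The member that did not pass was Myocd, the transcriptional coactivator. Des rose most, and the smallest of the 7 rises were those of Smtn and Myl9. Without normalization between arrays the median gene shifted by 0.465 and 82.5% of called genes were higher in GSC colonies, against 47.9% with it; the members' median was then 3.43, or 2.96 above that of all genes.

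The actin gene Acta2 was bright in colonies of either origin. Deposited intensities of its brighter probe reached 69482 and 74328 in GSC colonies, 37085 and 40294 in PGC colonies, and 3060 and 3274 in sorted cells. The normalized log2 values were 15.76 and 15.81 in GSC colonies, 15.08 and 15.15 in PGC colonies, and 12.01 and 12.03 in sorted cells, so the 3 groups did not overlap and kept the order GSC colony, PGC colony, sorted. The rise over sorted cells was 3.77 ± 0.10 (SE) in GSC colonies, or 13.6-fold (limma adjusted p = 2.6e-06), and 3.10 ± 0.10 in PGC colonies, or 8.56-fold (adjusted p = 5.9e-06). Between the colony groups the difference was 0.67 ± 0.10, with GSC colonies 1.59-fold higher (adjusted p = 0.0084).

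Acta2 had a dimmer probe, mMR027757, beside the brighter mMR027770 used above. On it GSC colonies measured 11.33 and 11.63, PGC colonies 10.22 and 10.25, and sorted cells 7.65 and 7.75, in the same order and again without overlap. The sorted arrays lay under the 30th percentile there, so the folds over sorted cells are bounds, at least 12.6-fold in GSC colonies and at least 5.33-fold in PGC colonies. The difference between GSC and PGC colonies was 1.24 ± 0.13 on this probe, against 0.67 on the brighter one. Actins are close in sequence, and whether either probe also binds another actin transcript was not tested.

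The genes of the actin-binding proteins followed Acta2 to different degrees. Cald1, which encodes caldesmon, measured 15.27 and 15.41 in GSC colonies, 15.34 and 14.73 in PGC colonies, and 11.19 and 11.28 in sorted cells. Its rise over sorted cells was 4.10 ± 0.20 in GSC colonies (17.2-fold; adjusted p = 1.9e-05) and 3.79 ± 0.20 in PGC colonies (13.9-fold; adjusted p = 3.0e-05). The colony groups overlapped, and their difference of 0.31 ± 0.20 had a 95% confidence interval from -0.19 to 0.81 (adjusted p = 0.37). The PGC colony arrays differed from each other more on this probe than on that of any other member, with an SD of 0.43 (n = 2). Without PGC colony replicate 1 the difference became 0.61 and was called (adjusted p = 0.046), and without PGC colony replicate 2 it was 0.0054 (adjusted p = 0.98). Cald1 also has non-muscle splice forms, and the probe was not assigned to a form here.

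Tagln, which encodes transgelin (SM22), a small calponin-like protein on actin filaments, was graded over the groups. Its values were 10.03 and 10.19 in GSC colonies, 8.93 and 8.82 in PGC colonies, and 6.85 and 7.09 in sorted cells, where both arrays lay under the 30th percentile. Over sorted cells the fold was at least 4.87 in GSC colonies (adjusted p = 9.1e-06) and at least 2.08 in PGC colonies (adjusted p = 7.3e-05). GSC colonies exceeded PGC colonies by 1.23 ± 0.13, or 2.35-fold (adjusted p = 0.0020).

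Smtn, the smoothelin gene, was the member for which GSC and PGC colonies were closest. It measured 13.12 and 13.16 in GSC colonies, 13.34 and 13.14 in PGC colonies, and 12.01 and 12.15 in sorted cells. The rise over sorted cells was 1.06 ± 0.12 in GSC colonies (2.08-fold; adjusted p = 0.00062) and 1.16 ± 0.12 in PGC colonies (2.23-fold; adjusted p = 0.00042). The colony groups overlapped, and their difference was -0.10 ± 0.12, with an interval from -0.39 to 0.19 (adjusted p = 0.63). Cnn1 stood at 6.70 and 6.61 in GSC colonies, 6.70 and 6.53 in PGC colonies, and 6.73 and 6.55 in sorted cells, all under the 30th percentile. It was therefore not tested and no fold is given; a dim probe cannot be told from a lack of transcript here.

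The intermediate filament gene Des showed the largest rise in GSC colonies. Deposited intensity was 17685 and 16738 in GSC colonies, 1400 and 1671 in PGC colonies, and 273 and 336 in sorted cells. The normalized values were 13.87 and 13.75 in GSC colonies, 10.35 and 10.63 in PGC colonies, and 8.68 and 8.90 in sorted cells, with no overlap between groups. GSC colonies exceeded sorted cells by 5.02 ± 0.15 (32.4-fold; adjusted p = 3.1e-06) and PGC colonies by 3.32 ± 0.15 (9.97-fold; adjusted p = 7.8e-05). PGC colonies in turn exceeded sorted cells by 1.70 ± 0.15 (3.25-fold; adjusted p = 0.00018). Desmin is made by striated muscle as well, so its level does not name a muscle type.

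The myosin genes departed from the order seen for Acta2. Myh11, the smooth muscle myosin heavy chain gene, had deposited intensities of 4682 and 4434 in GSC colonies, 354 and 256 in PGC colonies, and 385 and 366 in sorted cells. Normalized, these were 12.02 and 11.90 in GSC colonies, 8.43 and 8.20 in PGC colonies, and 9.11 and 9.00 in sorted cells. GSC colonies exceeded sorted cells by 2.90 ± 0.13 (7.49-fold; adjusted p = 1.1e-05). Over PGC colonies they were higher by 3.65 ± 0.13 (12.5-fold; adjusted p = 3.1e-05). PGC colonies, unlike those from newborn testis, lay below sorted cells, by a difference of -0.74 ± 0.13 (adjusted p = 0.0039). Without normalization between arrays that difference was -0.33 and not called (adjusted p = 0.078), while the median gene stood at 0.42.

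Myl9, the gene of the myosin regulatory light chain, had the same order of groups. It measured 13.54 and 13.36 in GSC colonies, 11.94 and 12.04 in PGC colonies, and 12.46 and 12.32 in sorted cells. GSC colonies were higher than PGC colonies by 1.46 ± 0.12 (2.75-fold; adjusted p = 0.00079) and higher than sorted cells by 1.06 ± 0.12 (2.08-fold; adjusted p = 0.00068). PGC colonies differed from sorted cells by -0.40 ± 0.12 (adjusted p = 0.037), a call that did not hold in 9 other settings. It was -0.27 with median centring (adjusted p = 0.15) and 0.13 without normalization between arrays (adjusted p = 0.36). With the replicate number as a block adjusted p was 0.059, and it was 0.050 to 0.20 when any of the 6 arrays was left out. Mylk, the gene of the kinase that phosphorylates this light chain, is named here after its values were seen. It stood at 14.80 and 14.72 in GSC colonies, 13.18 and 12.88 in PGC colonies, and 14.46 and 14.15 in sorted cells. PGC colonies were lower than sorted cells (-1.28 ± 0.16; adjusted p = 0.00091), and the difference of 0.46 ± 0.16 between GSC colonies and sorted cells did not pass (adjusted p = 0.056).

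Myocd, the coactivator gene, did not pass the test in any of the 3 comparisons. It measured 9.30 and 9.34 in GSC colonies, 8.96 and 8.68 in PGC colonies, and 8.92 and 9.08 in sorted cells. The GSC colony arrays lay above the other 4, but no neighbours in the order of groups differed beyond the threshold. The difference was 0.32 ± 0.14 for GSC colonies over sorted cells (interval -0.0030 to 0.65; adjusted p = 0.096), 0.50 ± 0.14 for GSC over PGC colonies (0.17 to 0.83; adjusted p = 0.057), and -0.18 ± 0.14 for PGC colonies over sorted cells (-0.50 to 0.15; adjusted p = 0.34). The first passed narrowly when either PGC colony array was left out (adjusted p = 0.050 each) or only the compared groups were fitted (0.0496), and without normalization between arrays it was 0.74 (adjusted p = 0.0061). The second was 0.64 and passed without PGC colony replicate 1 (adjusted p = 0.042), and it was 0.36 without replicate 2 (adjusted p = 0.14).

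**Figure D2:**
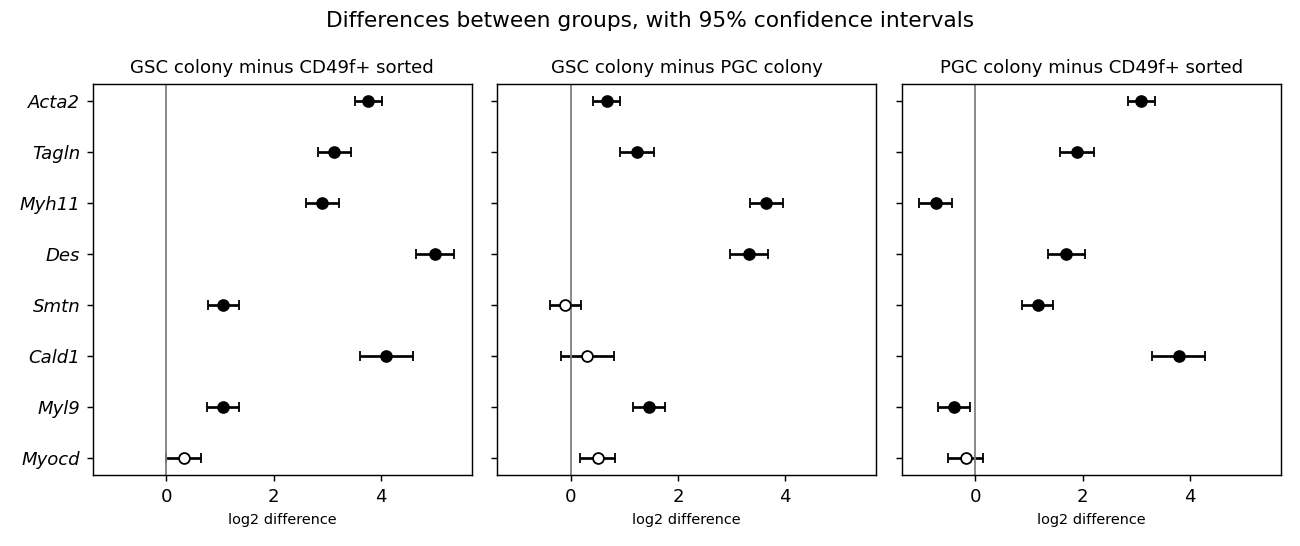
Log2 difference between groups (horizontal axis) for the 8 members tested, with 95% confidence intervals from the fit over 6 arrays; filled points passed a limma adjusted p under 0.05 and open points did not. Des had the largest difference between GSC colonies and sorted cells at 5.02, Myh11 the largest between GSC and PGC colonies at 3.65, and Myh11 and Myl9 lay below 0 in PGC colonies against sorted cells.

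GSC colonies were set against PGC colonies, which were grown in the same way from an earlier gonad. Of the 8 members tested, 5 rose in GSC colonies (Acta2, Tagln, Myh11, Des and Myl9) and 0 fell, while 7.98% of all genes rose, 7.08% fell and 15.1% changed. The members' median difference was 0.95, beside -0.01 over all genes. The members called differed in size: Myh11 and Des were more than 9-fold apart, and Acta2 was 1.59-fold apart on its brighter probe and 2.37-fold on its dimmer one. Testicular cells come from males, and the labels do not give the sex of the embryos.

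PGC colonies were set against CD49f+ sorted cells, so that stage and culture differ together. Of the 8 members tested, 5 rose in PGC colonies (Acta2, Cald1, Tagln, Des and Smtn) and 2 fell (Myh11 and Myl9), while 22.8% of all genes rose, 23.2% fell and 46% changed. Here too Tagln, which passed the filter only through colony arrays, could hardly have been counted as a fall. The members' median difference was 1.43, beside -0.02 over all genes. Without normalization between arrays 5 rose and 0 fell, and 80.5% of called genes were higher in PGC colonies against 49.5% with it. The 3 comparisons share groups, so their values are not independent of each other.

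Ratios between members on the same array do not depend on a shift of the whole array. They were taken here after quantile normalization, which is more than a shift, so they can depend on that step. Relative to Acta2, the log2 ratio of Myh11 stood at -3.73 and -3.91 in GSC colonies, -6.65 and -6.95 in PGC colonies, and -2.90 and -3.03 in sorted cells. The same probes are compared throughout, so only the change of the ratio between groups carries meaning: it was 2.98 higher in GSC than in PGC colonies, and 3.84 lower in PGC colonies than in sorted cells (-3.84). For Des the ratio was -1.88 and -2.07 in GSC colonies, -4.73 and -4.52 in PGC colonies, and -3.33 and -3.13 in sorted cells. Des thus gained on Acta2 in GSC colonies and lost on it in PGC colonies, each against sorted cells. For Myl9 the ratio was -2.22 and -2.46 in GSC colonies, -3.15 and -3.11 in PGC colonies, and 0.45 and 0.29 in sorted cells. For Smtn the order of the colony groups was turned, with -2.64 and -2.65 in GSC colonies, -1.75 and -2.01 in PGC colonies, and 0.00 and 0.12 in sorted cells. The ratio of Tagln in sorted cells is an upper bound, since both arrays lay under the 30th percentile there. These ratios are descriptions, with no test.

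**Figure D3:**
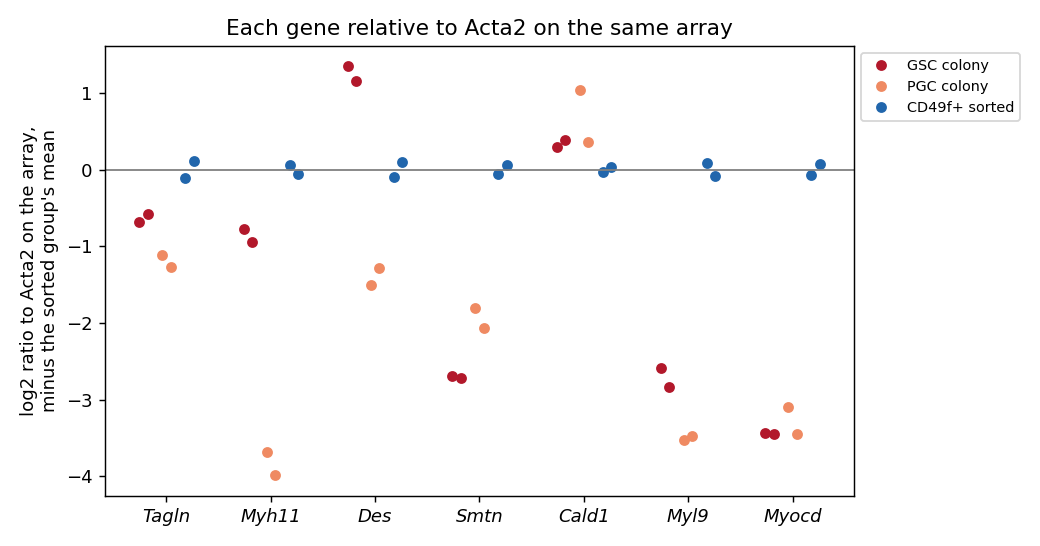
Log2 ratio of each member to Acta2 on the same array, minus the mean ratio of the 2 sorted arrays (vertical axis), a point per array in the GSC colony, PGC colony and CD49f+ sorted groups. Myh11 in PGC colonies stands furthest below the sorted arrays, at a mean change of -3.84, and Des in GSC colonies stands above them, at a mean change of 1.25.

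Acta2 was then compared with every other gene tested by the root mean square distance between log2 profiles over the 6 arrays, each centred on its own mean. The nearest 5 were Adam19, a membrane metalloprotease gene (0.09), Emilin1, an elastic fibre glycoprotein gene (0.11), B4galt5, a galactosyltransferase gene (0.11), Antxr2, a receptor gene for collagen VI and anthrax toxin (0.11), and Fhl2, a LIM-domain protein gene (0.12). Among the members, Cald1 was nearest to Acta2 at 0.35, and Acta2 was the nearest member to Tagln at 0.49. Myh11 and Des had no near member: the closest were Myl9 at 0.97 and Tagln at 0.95. Likeness over 6 arrays in 3 groups is a description of the arrays.

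Other genes of smooth muscle contraction and its cytoskeleton were counted from a list of 28 genes, with probes for 26 and tests for 23. The counts of this and each later list are to be read beside the shares of all genes tested. Of all genes, 22.5% rose and 24.5% fell in GSC colonies against sorted cells, and 7.98% and 7.08% against PGC colonies. The shares were 22.8% and 23.2% in PGC colonies against sorted cells. In GSC colonies against sorted cells 10 of the 23 rose and 4 fell, with a median difference of 0.70. Pdlim3, an actinin-associated LIM protein gene, rose by 3.46 ± 0.11 (adjusted p = 3.6e-06) and Cnn2, a calponin gene of many cell types, by 3.37 ± 0.11 (adjusted p = 4.6e-06). Synm, which encodes synemin, a partner of desmin filaments, went the other way from Des: it measured 10.13 and 9.50 in GSC colonies, 9.87 and 10.08 in PGC colonies, and 13.14 and 13.37 in sorted cells. Synm fell by 3.44 ± 0.22 in GSC colonies and by 3.28 ± 0.22 in PGC colonies, each against sorted cells (adjusted p = 5.2e-05 and 6.9e-05). Aoc3, an amine oxidase gene of vascular smooth muscle and fat, was at least 4.61-fold lower in GSC colonies than in sorted cells. Against PGC colonies 10 of the 23 rose in GSC colonies and 0 fell, with a median difference of 0.50. Pdlim3 and Pgm5, a gene of muscle adhesion sites, led these at 2.62 ± 0.11 and 2.06 ± 0.14 (adjusted p = 5.8e-05 and 0.00034). In PGC colonies against sorted cells 10 rose and 5 fell, Cnn2 by 2.87 ± 0.11 and the integrin gene Itga8 by 2.33 ± 0.14 among those that rose. If arrays were not normalized to each other, 16 rose and 3 fell in GSC colonies, and 12 rose and 5 fell in PGC colonies, each against sorted cells. Tpm1, a tropomyosin gene, differed widely between the GSC colony arrays, at 10.96 on replicate 1 and 15.07 on replicate 2, and was not called in any comparison. Lmod1, Pln and Kcnmb1, named as smooth muscle markers in the same list, were below the 30th percentile of every array.

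Of 22 regulators of smooth muscle genes, Myocd not counted, all had a probe and 21 were tested. In GSC colonies 9 rose and 5 fell against sorted cells, and 5 rose and 2 fell against PGC colonies. In PGC colonies 8 rose and 6 fell against sorted cells. Of all genes tested, 22.5% rose and 24.5% fell in GSC colonies against sorted cells, and 22.8% and 23.2% in PGC colonies. The 5 regulators of 21 that fell in GSC colonies were thus near the share of all genes. The counts against sorted cells were 12 up and 4 down in GSC colonies, and 11 up and 2 down in PGC colonies, without normalization between arrays. The mesenchymal transcription factor genes Prrx1 and Tcf21 rose by 4.71 ± 0.11 and 4.15 ± 0.19 in GSC colonies and by 4.37 ± 0.11 and 3.02 ± 0.19 in PGC colonies, each against sorted cells. Tgfbr2, a TGF-beta receptor gene, was higher in GSC than in PGC colonies by 2.10 ± 0.20 (adjusted p = 0.0013), and the ligand gene Tgfb1 lower by a difference of -1.01 ± 0.12 (adjusted p = 0.0027). Smad7, a feedback inhibitor of that pathway, fell by 2.00 ± 0.15 in GSC colonies and by 1.67 ± 0.15 in PGC colonies, each against sorted cells. Srf, the gene of serum response factor, is named after its values were seen. It measured 12.88 and 12.71 in GSC colonies, 12.72 and 13.04 in PGC colonies, and 13.75 and 13.81 in sorted cells, and thus ran opposite to Acta2. It fell by 0.98 ± 0.15 in GSC colonies and by 0.90 ± 0.15 in PGC colonies, each against sorted cells (adjusted p = 0.0019 and 0.0029). Without normalization between arrays neither fall was called, with differences of -0.37 and -0.34 (adjusted p = 0.076 and 0.098).

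In the list of hedgehog, PDGF and other genes of the testis interstitium, 13 genes were tested. Peritubular myoid cells answer to desert hedgehog from Sertoli cells and carry PDGF receptors. In GSC and in PGC colonies alike, 10 rose and 3 fell against sorted cells. Pdgfra and Pdgfrb rose by 4.78 ± 0.11 and 5.63 ± 0.11 in GSC colonies and by 3.73 ± 0.11 and 6.21 ± 0.11 in PGC colonies. Dhh fell by 3.16 ± 0.13 in GSC colonies and by 3.05 ± 0.13 in PGC colonies, each against sorted cells. In GSC against PGC colonies 2 of the 13 rose and 5 fell, with a median difference of -0.38. The hedgehog target genes Gli1 and Hhip were lower in GSC than in PGC colonies, by -1.35 ± 0.21 and -1.33 ± 0.18 (adjusted p = 0.0094 and 0.0053).

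Striated muscle genes were set beside the members, since skeletal and cardiac actins resemble Acta2. Of 13 tested, 1 rose and 5 fell in GSC colonies against sorted cells, while 9 rose and 1 fell in PGC colonies against sorted cells. These counts were 4 and 3 in GSC colonies, and 11 and 1 in PGC colonies, without normalization between arrays. Between colony groups 0 rose and 10 fell in GSC colonies, the opposite direction to the smooth muscle members, with a median difference of -1.71. Acta1 measured 7.27 and 7.17 in GSC colonies, 10.87 and 11.12 in PGC colonies, and 7.68 and 7.69 in sorted cells. It passed the filter only through PGC colony arrays. Its direction in PGC colonies against either other group was thus set by the filter. Ckm passed only through sorted arrays, so it could hardly have been counted as a rise against sorted cells. Actc1, cardiac actin, measured 8.27 and 6.85 in GSC colonies, 12.01 and 11.84 in PGC colonies, and 7.38 and 8.37 in sorted cells. For Tnnt2, the cardiac troponin T gene, signal exceeded that of sorted cells at least 10.7-fold in GSC colonies and at least 28.7-fold in PGC colonies. Of 13 non-muscle cytoskeleton genes, 5 rose and 1 fell in GSC colonies against sorted cells, with a median of 0.15, and Actb stood between 17.00 and 17.27 on the 6 arrays. Quantile normalization gives every array the same set of values, so the closeness of Actb, near the top of that scale, can depend on that step. Without normalization between arrays 12 of the 13 rose and 0 fell, with the median gene at 0.47.

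Markers of other cells moved with the same comparisons. All 8 fibroblast genes tested, Pdgfra again among them, rose in both colony groups against sorted cells. The collagen gene Col1a1, also on the fibroblast list, was below the 30th percentile of every array and was not tested. The mean log2 level of the 9 fibroblast genes, Col1a1 among them, was 14.29 and 14.35 in GSC colonies, 13.68 and 13.77 in PGC colonies, and 10.09 and 10.09 in sorted cells. The 8 Sertoli and 8 leukocyte markers all fell in both, except that 7 of the leukocyte markers fell in PGC colonies without normalization between arrays. The leukocyte mean was 8.02 and 7.83 in GSC colonies, 9.64 and 9.55 in PGC colonies, and 13.29 and 13.27 in sorted cells. Of 6 endothelial genes, 5 fell and 1 rose in GSC colonies, and 6 fell in PGC colonies. Their part in the members' differences was not tested. Of 8 pericyte and vascular mural markers, Rgs5 was below the 30th percentile of every array, and 6 were tested. Of these, 4 rose and 1 fell in GSC colonies against sorted cells, and 3 rose and 1 fell in PGC colonies against sorted cells. In GSC against PGC colonies 1 rose and 3 fell. Without normalization between arrays the counts against sorted cells were 5 up and 0 down in GSC colonies, and 4 up and 0 down in PGC colonies. Cspg4, the NG2 proteoglycan gene of pericytes, rose by 2.67 ± 0.11 in GSC colonies and by 3.21 ± 0.11 in PGC colonies, each against sorted cells. Mcam, of the same list, went the other way. It measured 12.88 and 12.96 in GSC colonies, 13.12 and 13.05 in PGC colonies, and 13.67 and 13.75 in sorted cells. Germ cell markers were checked because of the group names. Of 8, 1 lay under the 30th percentile on each GSC colony array, 3 on each PGC colony array and 2 on each sorted array. Dppa3, an early germ cell gene, was under it on all 6. Zbtb16 was under it on both PGC colony arrays and both sorted arrays, and Dazl on both PGC colony arrays. Of 7 germ cell genes tested, 5 rose and 0 fell in GSC colonies against sorted cells, and 0 rose and 2 fell in PGC colonies against sorted cells. In GSC against PGC colonies 5 rose and 0 fell. Zbtb16, at 10.47 and 10.43 in GSC colonies, passed the filter only through those arrays. Its direction in GSC colonies against either other group was thus set by the filter.

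**Figure D4:**
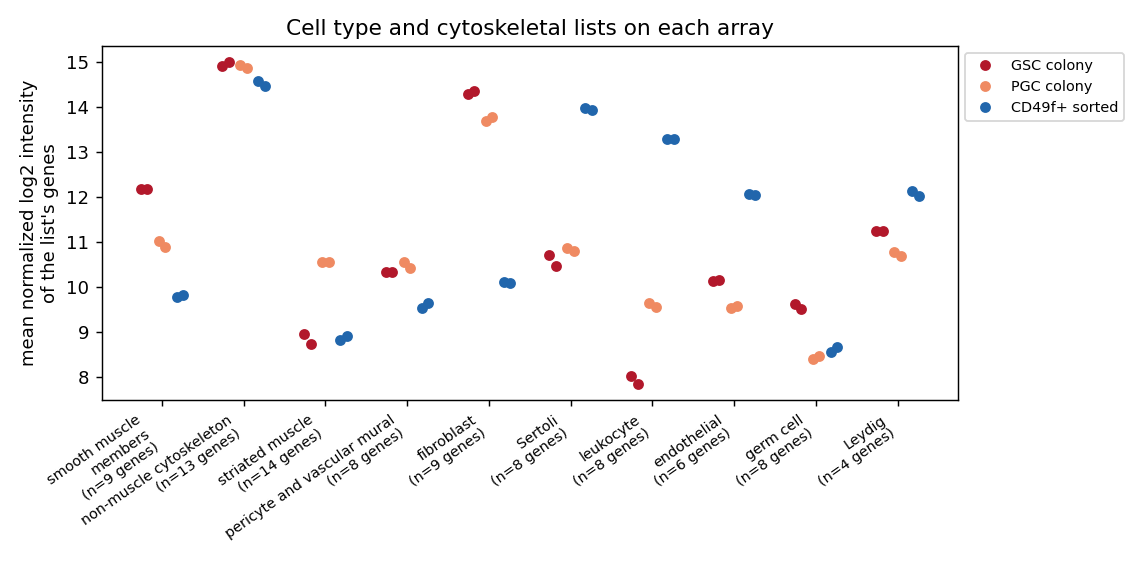
Mean normalized log2 intensity (vertical axis) of the genes of each list on each array, in the GSC colony, PGC colony and CD49f+ sorted groups; levels are to be compared within a list and not between lists, whose probes differ. The means of the smooth muscle members and the fibroblast genes are highest in GSC colonies and lowest in sorted cells. The mean of the striated muscle genes is highest in PGC colonies, and those of the Sertoli, leukocyte, endothelial and Leydig genes in sorted cells. Single genes can differ from the mean: of 4 Leydig genes tested, 1 rose and 2 fell in GSC colonies against sorted cells.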

How the data were processed

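The authors deposited linear intensity values of 26423 probes on 6 arrays. Some values were below 0 on 4 arrays. Scanner, background method and any scaling: not given in the sources used here. Median intensity was 606 and 558 (GSC colonies), 587 and 541 (PGC colonies), and 393 and 406 (sorted cells). The probe table gave 1 symbol for 21876 probes. Intensities were background corrected with normexp (offset 50), log2 transformed and quantile normalized with limma 3.58.1 in R 4.3.3. The brightest probe stood for a gene. Genes at or above the 30th percentile on at least 2 of 6 arrays were tested in 1 fit (lmFit and eBayes on group means, with 3 degrees of freedom left) with Benjamini-Hochberg adjustment over 15459 genes; the fit was tested on simulated data. Where a group's arrays were both under that percentile, the fold is a lower bound against it. The log2 difference between replicates had an SD of 0.447 in GSC colonies, 0.308 in PGC colonies and 0.302 in sorted cells, and a median absolute deviation of 0.188, 0.266 and 0.186 in the same order.

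The members, lists and tests were chosen with earlier results of these data known. Named genes are the members, up to 4 genes a list and comparison (the 2 largest rises and the 2 largest falls called) and the 5 genes nearest to Acta2. Mylk, Srf, Tpm1, Actb and the genes named for lying under the percentile are exceptions, chosen after their values were seen. Promoter sequences are RefSeq's (GRCm38.p6). Whether replicate numbers pair the arrays was not settled. Deviations of replicate 1 from the group mean correlated at -0.18 between GSC and PGC colonies and at -0.34 between GSC colonies and sorted cells. The correlation was 0.33 between PGC colonies and sorted cells. Alternatives covered scaling, offset, filter, probe choice, the replicate block, the groups in the fit and each array left out.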

Additional observations from a re-analysis of the deposited data

How the results depend on the processing

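For the 8 members tested and 3 comparisons, 319 of 336 differences under other settings kept their direction and their side of the threshold. The others numbered 9 that lost the call, 6 that gained it and 2 that turned. Both turned without normalization between arrays, in PGC colonies against sorted cells: Myl9 became 0.13 and Myocd 0.22, neither called, while the median gene shifted by 0.42. Many of the other settings could change a call but not a difference, so its direction was fixed there. They were no filter, the replicate block, the compared groups only, every probe as its own feature, and an uncompared group's array left out. Averaging probes could alter the difference of Acta2 only. The members called numbered 7 to 8 in GSC colonies against sorted cells, 5 to 7 in GSC against PGC colonies and 6 in PGC colonies against sorted cells when single arrays were left out, and 5 in the last without normalization between arrays. Genes called over the whole array ranged from 5195 to 7757, from 1443 to 2043 and from 5046 to 7059 in those 3 comparisons when single arrays were left out, the lowest of the second without GSC colony replicate 1; it was 1527 without PGC colony replicate 2. With the replicate block 7, 5 and 6 members were called, and 6804, 1707 and 6637 genes, Myl9 in PGC colonies being the member lost. When arrays were left out of the fit, normalization and the choice of probe still used all 6 arrays, so a left-out array still shaped the values. The lone array of a group was assumed to vary like the other groups. The causes were not tested. Signal near background limits Cnn1, Tagln in sorted cells and the dimmer Acta2 probe.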
